A study of Mus musculus with 2 samples.

Results

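The 10 genes described here encode the 5 DNA-binding subunits of the transcription factor NF-kappaB (Nfkb1, Nfkb2, Rel, Rela and Relb) and 5 proteins that restrain or tune it (Nfkbia, Nfkbib, Nfkbie, Nfkbiz and Tnfaip3). They were chosen by name, as every probe annotated to 1 of these symbols or to its RefSeq transcript, and are 10 of 27238 named genes on the array. These genes and the gene lists used below were chosen with earlier results of these data known. The shares called therefore describe the lists and were not tested. All 10 were measured, through 14 probes. The arrays set 2 sorted pools of mouse cells against each other. The colon pool held CX3CR1high cells, positive for CD11b and CD11c, from the large intestinal lamina propria of CX3CR1gfp/+ mice, in which green fluorescent protein replaces 1 allele of the fractalkine receptor gene Cx3cr1. The blood pool held monocytes positive for Ly6c and CD11b from the blood of C57BL/6J mice. In the design text the colon cells carry n = 10 and the blood monocytes n = 6, with no word on what is counted. Tissue, sort gate and stated genotype differ together between the pools and cannot be told apart.

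Labelled RNA of the 2 pools competed on 2 arrays. Array 1 had the colon pool in Cy5 and the blood pool in Cy3, and array 2 had the dyes swapped. Both arrays read the same 2 pools, so they count as 1 replicate, no test was possible and no p-value was computed. Ratios are given as log2 of colon pool over blood pool, and every SD is over the 2 arrays and covers technical error alone. A gene was called higher or lower when each array gave a log2 ratio of 1 or more, or of -1 or less, that is 2-fold, and the signal of the brighter pool stood well above background on both. To count as measured, a gene needed 1 pool with signal well above background on each array, which held for 15680 genes. By pool and array, 52.9% to 59.6% of spots stood well above background, and the number of arrays limits the precision. In RNA of pooled cells, fewer cells of a type and less RNA per cell cannot be told apart.

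NF-kappaB proteins bind DNA as dimers. In resting cells IkappaB proteins hold most dimers in the cytoplasm until the IkappaB kinase complex, switched on by receptors such as those for TNF, IL-1 or bacterial products, marks the inhibitors for degradation. Freed dimers enter the nucleus and switch on cytokine and chemokine genes together with genes of their own inhibitors, which closes a negative feedback loop. A slower non-canonical branch runs through processing of the Nfkb2 product p100 and dimers of p52 with RelB. In macrophages of the gut wall the pathway is known as a link between sensing of microbes and restraint of inflammation.

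Dimers recognise a short element, the kappaB site, and several of the 10 genes are themselves known targets. The 250 bases before each RefSeq transcription start (GRCm38) were searched on both strands for the kappaB consensus, counting overlapping matches, for the 7 genes with an entry in the promoter table. Nfkb1, Relb and Nfkbiz have no entry there. The consensus was found for 5 of 7 genes, Nfkb2, Rel, Nfkbia, Nfkbie and Tnfaip3, and in 7 of the 10 windows of the 7 genes. Of all promoter entries, 3.9% of 32851 windows of this length and 4.46% of 27025 genes hold it. The windows of 3 inhibitor genes that were higher in the colon pool and hold a match, of Nfkbib, which was higher and holds none, and of Rel, which holds 2 overlapping matches and was not called, are printed 5′ to 3′ on the gene's strand with matches in capitals. Nfkbia spans chr12:55492648-55492897 (minus strand) and its match begins 29 bases before the start. Nfkbie spans chr17:45555450-45555699 (plus strand), with the match 106 bases before the start. Tnfaip3 spans chr10:19015411-19015660 (minus strand), with matches 125 and 12 bases before the start. Nfkbib spans chr7:28766645-28766894 (minus strand) and Rel spans chr11:23770970-23771219 (minus strand), where the matches begin 92 and 91 bases before the start. A match describes these letters only, and nothing in the arrays measures binding.
Nfkbia: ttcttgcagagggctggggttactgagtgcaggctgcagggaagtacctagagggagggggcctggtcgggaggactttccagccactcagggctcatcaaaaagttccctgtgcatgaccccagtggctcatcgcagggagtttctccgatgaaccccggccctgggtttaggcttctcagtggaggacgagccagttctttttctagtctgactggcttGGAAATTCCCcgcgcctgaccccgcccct
Nfkbie: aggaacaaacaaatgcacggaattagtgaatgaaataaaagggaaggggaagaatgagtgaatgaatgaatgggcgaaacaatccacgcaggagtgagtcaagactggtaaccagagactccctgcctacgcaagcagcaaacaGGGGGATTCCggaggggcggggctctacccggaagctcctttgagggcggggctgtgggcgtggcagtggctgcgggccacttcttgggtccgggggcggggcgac
Tnfaip3: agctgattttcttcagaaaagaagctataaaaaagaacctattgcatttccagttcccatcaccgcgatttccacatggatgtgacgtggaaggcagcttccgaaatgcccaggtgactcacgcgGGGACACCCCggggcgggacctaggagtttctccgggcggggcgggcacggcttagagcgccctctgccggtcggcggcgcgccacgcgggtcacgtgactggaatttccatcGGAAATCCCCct
Nfkbib: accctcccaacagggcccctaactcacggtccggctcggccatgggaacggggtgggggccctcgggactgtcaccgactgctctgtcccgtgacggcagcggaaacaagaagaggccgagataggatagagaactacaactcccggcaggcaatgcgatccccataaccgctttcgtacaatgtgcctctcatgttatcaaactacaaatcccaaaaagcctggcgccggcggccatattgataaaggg
Rel: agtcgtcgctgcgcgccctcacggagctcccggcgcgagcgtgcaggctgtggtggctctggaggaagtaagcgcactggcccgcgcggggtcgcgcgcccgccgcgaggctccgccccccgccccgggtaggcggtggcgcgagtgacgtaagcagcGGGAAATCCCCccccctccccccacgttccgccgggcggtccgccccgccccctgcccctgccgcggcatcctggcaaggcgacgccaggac

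Among the 10 genes, 6 were higher in the colon pool, 0 were lower and 4 passed the 2-fold rule in neither direction. The share called higher was 60%, against 14.2% of all measured genes, while 4.46% of all measured genes were lower and 18.6% were called in either direction. The median log2 ratio of the 10 was 1.32, and that of all measured genes was 0.06. All 10 lay above 0 on both arrays, which held for 47.7% of all measured genes. The called genes were Relb, Nfkbie, Tnfaip3, Nfkbib, Nfkbia and Nfkb2, so 2 of 5 DNA-binding subunits and 4 of 5 inhibitors. This count depends on the scaling: with median centring of each array in place of the intensity-dependent loess fit, 0 of 10 passed, against 7.26% of all genes, and the members' median was 0.54. On array 2 alone 7 of 10 then lay below 0, the exceptions being Relb, Nfkbie and Rel. Median centring left the 5140 measured genes with a mean log2 intensity of at least 10, a limit chosen after the data were seen, at a median of 0.34 on array 1 and -1.74 on array 2. Over those genes the members' median stood 1.245 higher under median centring, 1.28 higher under loess and 1.34 higher with the ratios of the scanner software.

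**Figure D1:**
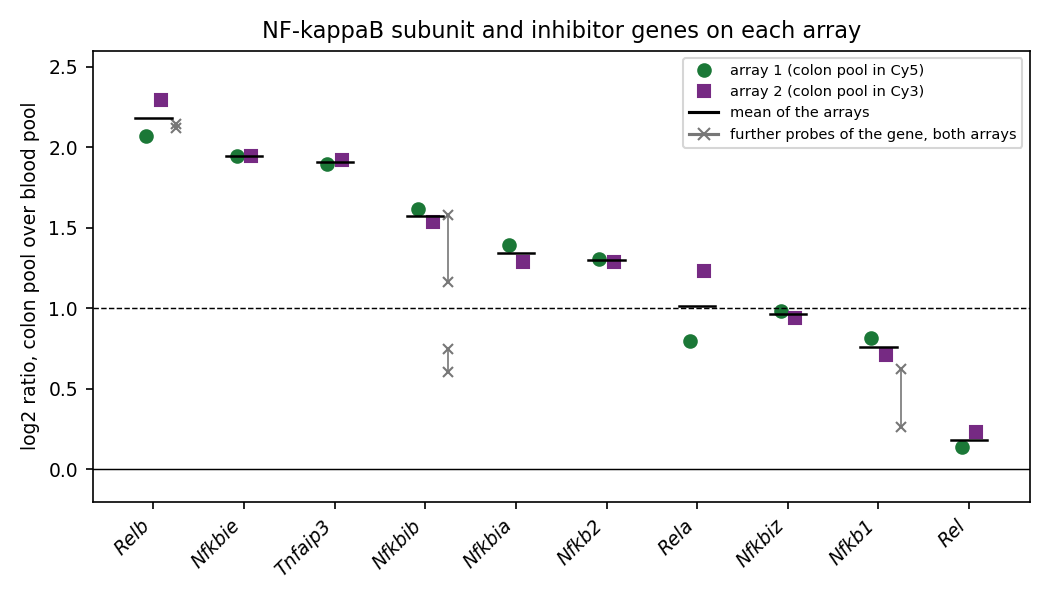
Log2 of colon pool over blood pool (y axis) for each of the 10 genes (x axis), with a circle for array 1, a square for array 2, a bar for their mean and grey crosses for further probes. The dashed line marks a log2 ratio of 1. Relb, Nfkbie, Tnfaip3, Nfkbib, Nfkbia and Nfkb2 lie above it on both arrays, Rela on array 2 alone, and Rel lies near 0.

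Among the canonical subunits, Rela and Nfkb1 read higher in the colon pool on both arrays but stayed under the 2-fold rule on at least 1, and Rel was too dim to compare. Rela encodes p65, the main activating subunit of the canonical pathway, and its probe lies on mouse build mm9 at chr19:5648070-5648129 (plus strand). Rela had a normalised intensity of 28463 and 32117 in the colon pool on arrays 1 and 2, against 16356 and 13661 in the blood pool. The colon values lay above the blood values on both arrays without overlap. The log2 ratio was 0.80 on array 1 and 1.23 on array 2, with a mean of 1.02 ± 0.31 (2.02-fold), so the 2-fold rule was met on array 2 alone and Rela was not called. Among the 10 genes Rela had the widest gap between the arrays. Over all measured genes the SD between arrays had a median of 0.10 and a 95th percentile of 0.34.

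Nfkb1 encodes p105, the precursor of the DNA-binding subunit p50, which also acts as an inhibitor before it is processed. Its probe at chr3:135254550-135254609 (minus strand) read 1538 and 1445 in the colon pool, against 874.1 and 882.5 in the blood pool. The pools did not overlap, and the mean ratio of 0.76 ± 0.07 (1.70-fold) was not called. A second probe, at chr3:135247621-135247680, read 653.4 and 565.7 in the colon pool and 424.5 and 471.4 in the blood pool, a ratio of 0.44 ± 0.25. Neither Nfkb1 probe was called.

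Rel encodes c-Rel, a subunit known for its part in cytokine genes of lymphocytes and myeloid cells. Its probe, for which the file lists 15 bases at chr11:23641729-23641743 (minus strand), was dim, with 105.5 and 81.72 in the colon pool and 95.89 and 69.66 in the blood pool. The pools overlapped, and array to array differences were larger than those between the pools. The blood signal was well above background on 1 of 2 arrays. Before normalisation the spot read 108.9 and 66.66 in the colon pool, over a background of 46 on both arrays, and 68.58 and 61.11 in the blood pool, over 41 and 49. The ratio was 0.18 ± 0.07 with the loess fit, and 0.26 and 1.35 on the 2 arrays with the scanner software, which subtracts background. A difference of Rel was not measurable at this signal, and a low ratio here does not show equal expression.

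Both subunits of the non-canonical branch were higher in the colon pool. Relb encodes RelB, the partner of p52, and had the highest ratio of the 10 genes. Its brighter probe, at chr7:20191722-20191781 (minus strand), read 4984 and 5227 in the colon pool, against 1185 and 1066 in the blood pool. The ratio was 2.07 and 2.29 on the 2 arrays, with a mean of 2.18 ± 0.16 (4.54-fold), higher than 94.5% of measured genes. A second probe, at chr7:20191773-20191832, read 3326 and 3288 in the colon pool, against 765.6 and 744.7 in the blood pool, and gave 2.13 ± 0.02 (4.38-fold). The 2 probes share 9 bases, so they sample neighbouring stretches of 1 transcript and are not independent. The facing ends of both probes are printed with the shared bases in capitals.
Relb second probe, last 30 bases: ggacatctgcagcgctggtggGAAGATGGG
Relb brighter probe, first 30 bases: GAAGATGGGgagcactccggttctctttga

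Nfkb2 encodes p100, the precursor of p52, which in its unprocessed form holds RelB in the cytoplasm. The probe, at chr19:46386146-46386285 (plus strand, a span of 140 bases for a probe of 60), read 3901 and 3683 in the colon pool, against 1578 and 1505 in the blood pool. In these normalised intensities the pools were apart on both arrays, and the mean ratio was 1.30 ± 0.01 (2.46-fold). Of its 3 promoter windows 1 holds kappaB matches that begin 39, 38 and 11 bases before the start, the first 2 of them overlapping, and the others hold 1 match each. These windows overlap the annotated gene and are not printed.

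**Figure D2:**
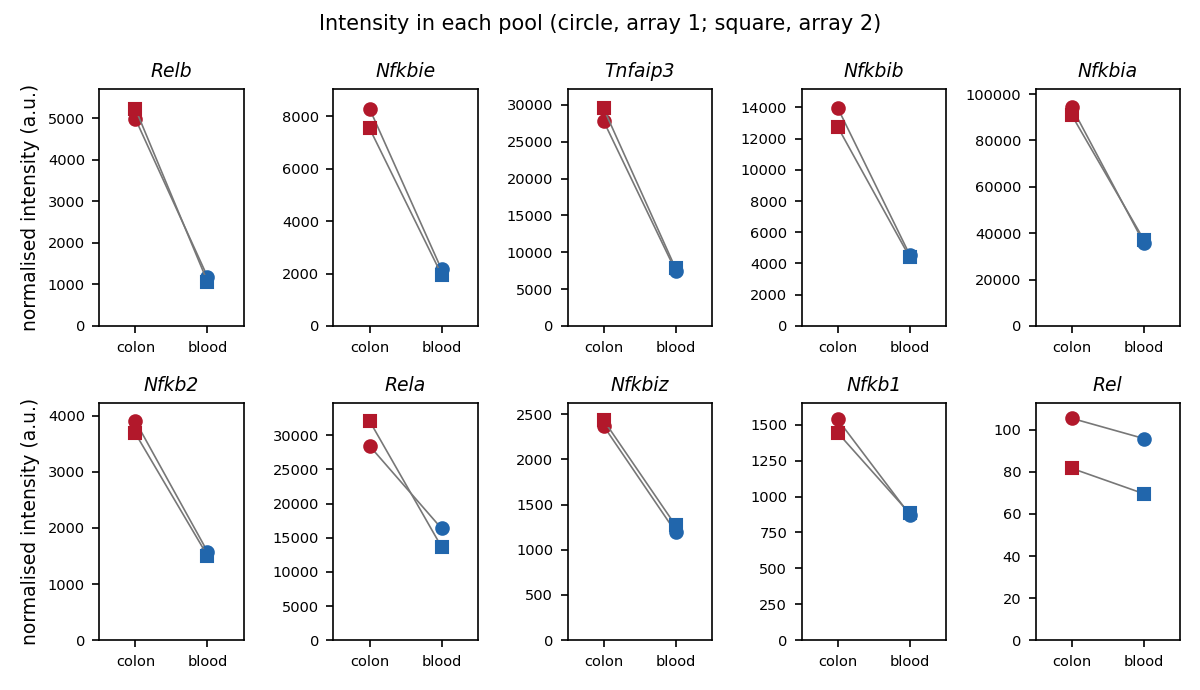
Normalised intensity in arbitrary units (y axis, from 0 and scaled for each gene on its own) in the colon pool (left) and the blood pool (right), with a panel for each gene, a circle for array 1, a square for array 2 and a line joining the pools on 1 array. Intensities of different genes come from different probes and are not comparable. The colon values exceed the blood values without overlap in every panel except that of Rel.

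Among the inhibitors, the 3 classical IkappaB genes were all higher in the colon pool. Nfkbia encodes IkappaB-alpha, the fast and transient feedback inhibitor. Its probe, at chr12:56590945-56591440 (minus strand, a span of 496 bases), read 94420 and 90991 in the colon pool, against 35902 and 37251 in the blood pool. The ratio was 1.395 and 1.29 on the 2 arrays, with a mean of 1.34 ± 0.08 (2.54-fold). The spot was bright in both pools and not saturated, since 0 spots were saturated on either array.

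Nfkbie encodes IkappaB-epsilon, a later and slower feedback inhibitor. Its probe, at chr17:45700000-45700059 (plus strand), read 8298 and 7546 in the colon pool, against 2155 and 1959 in the blood pool. With the loess fit the ratio was 1.945 on each array (3.85-fold), the second highest of the 10 and the closest agreement between arrays among them.

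Nfkbib encodes IkappaB-beta, known to be degraded more slowly than IkappaB-alpha. It was read by 3 probes that start at bases 694, 1084 and 1885 of the transcript. The brightest, at chr7:29544160-29544219 (minus strand), starts at base 1084 and read 13981 and 12765 in the colon pool, against 4565 and 4407 in the blood pool, a ratio of 1.57 ± 0.06 (2.98-fold). The probe at base 694, whose span of 1396 bases covers chr7:29545252-29546647, read 3725 and 3110 in the colon pool, against 1249 and 1386 in the blood pool, a ratio of 1.37 ± 0.29. Both were called higher. The probe nearest the 3′ end, at chr7:29543270-29543329, read 1720 and 1569 in the colon pool, against 1023 and 1031 in the blood pool, and its ratio of 0.68 ± 0.10 was not called. Nfkbib was the gene with the widest spread between probes, a gap of 0.90 on the log2 scale between the highest and the lowest. The 3 probes share no stretch of the transcript, and their first 30 bases are printed.
Nfkbib probe from base 694: tacaactagaagctgaaaactatgatggcc
Nfkbib probe from base 1084: aatatgatgacatcgtggttcacagtggca
Nfkbib probe from base 1885: catttgtgaagcgatggctattttgattgc

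Tnfaip3 encodes A20, a ubiquitin-editing enzyme that shuts off signalling upstream of the IkappaB kinase. Its probe, at chr10:18720776-18720835 (minus strand), read 27827 and 29534 in the colon pool, against 7484 and 7798 in the blood pool. In these normalised intensities the pools were apart by a wide margin compared with the gap between arrays. The ratio was 1.895 and 1.92, with a mean of 1.91 ± 0.02 (3.75-fold). Before normalisation the spot read 34248 and 13393 in the colon pool and 6059 and 17155 in the blood pool. On array 2 the order of the pools was thus reversed before the loess fit. The same held on array 2 for every other gene of the set except Relb and Rel. Nfkbia, for example, read 38578 in the colon pool and 87823 in the blood pool there before normalisation. Nfkbiz encodes IkappaB-zeta, a nuclear relative of the IkappaB proteins that acts at selected target genes as a coactivator and so differs in role from the other inhibitors. Its probe, at chr16:55817859-55817918 (minus strand), read 2369 and 2433 in the colon pool, against 1197 and 1268 in the blood pool. The ratio of 0.96 ± 0.03 (1.95-fold) lay just under the 2-fold rule on both arrays, and Nfkbiz was not called. With a normexp offset of 16 in place of 50 the mean was 1.006, still without a call.

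By ratio the 10 genes ran in the order Relb, Nfkbie, Tnfaip3, Nfkbib, Nfkbia, Nfkb2, Rela, Nfkbiz, Nfkb1 and Rel. The array values of neighbours overlapped for Nfkbia with Nfkb2 and for Rela with Nfkbiz, whose order is therefore not settled by these arrays. Nfkbie and Tnfaip3 lay 0.04 apart, without overlap, but the scanner software gave the reverse order. There Tnfaip3 stood at 1.902 and 1.959 on arrays 1 and 2, and Nfkbie at 1.877 and 1.855. With the mean over probes Nfkbib stood at 1.21, below Nfkbia at 1.34 and Nfkb2 at 1.30. A lack of overlap between the 2 arrays therefore does not settle the order. The range from 0.18 to 2.18 held all 10. The median of the 5 inhibitors was 1.57 and that of the 5 subunits 1.02, a difference that was not tested. Just inside the 2-fold rule lay Nfkbia and Nfkb2, each at 1.29 on its lower array. Just outside it lay Nfkbiz, at 0.99 and 0.94, and Rela, at 0.80 and 1.23.

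The other genes of the pathway were read by role, beginning with 16 measured members of a list of 17 further inhibitors. Of these 6 were higher (37.5%, against 14.2% of all measured genes) and 1 was lower. The median was 0.02, and Otud7b was not measured. The 4 highest were Tnip3, Tnip1, Tnip2 and Zc3h12a. Tnip1, an A20-binding protein, read 31725 and 31410 in the colon pool, against 7597 and 7707 in the blood pool, a ratio of 2.045 ± 0.02 with 1.91 from its other probe. The A20-binding proteins Tnip3 (2.72 ± 0.06) and Tnip2 (1.37 ± 0.19) were also higher, with 3.22 and 1.15 from their other probes. Together with Tnfaip3 itself, all 3 Tnip genes were called higher under loess, and Tnip3 alone of these 4 was called under median centring. Zc3h12a, a ribonuclease that degrades cytokine transcripts, had a ratio of 1.33 ± 0.13. Nkiras2, a small GTPase-like protein that binds IkappaB, was lower at -1.26 ± 0.04 (2.39-fold), with -0.86 from its other probe and no call under median centring. Named after their values were seen, the nuclear IkappaB genes Nfkbid (1.24 ± 0.22, higher) and Bcl3 (0.86 ± 0.13, not called) lay on either side of the rule. Under median centring 1 of the 16 was higher and 0 were lower, where 7.26% of all measured genes were higher.

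Receptors were represented by 12 genes, 5 higher (41.67%, against 14.2% of all measured genes) and 0 lower in the colon pool. Their median was 0.45. Cd14, the lipopolysaccharide co-receptor, had a ratio of 2.80 ± 0.14, and Cd40, a costimulatory receptor known to engage the non-canonical branch, had 2.78 ± 0.03. Cd40 read 6600 and 6029 in the colon pool, against 947.2 and 890.9 in the blood pool. Il1r1, the IL-1 receptor, had a blood signal not well above background on either array and was at least 4.28-fold higher in the colon pool. For such genes the bound sets the colon signal against the higher of the dim spot's own signal and the lowest signal called well above background. Tnfrsf11a, the receptor RANK, followed at 1.799 ± 0.16. Under median centring 3 receptor genes were called, among them Cd40 and Il1r1, and Cd14 and Tnfrsf11a were not.

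The list of 21 adaptors and ligases held 4 higher and 0 lower genes and had a median of -0.15. The share called higher was 19.05%, near the 14.2% of all measured genes. Traf3, which restrains the non-canonical branch, read 8011 and 7387 in the colon pool, against 2626 and 2783 in the blood pool, a ratio of 1.51 ± 0.14. Traf2, an adaptor of TNF receptors, had 1.22 ± 0.08 with 0.34 from its other probe, and the paracaspase gene Malt1 had 1.21 ± 0.07. None of these 3 genes was called under median centring, where 1 gene of the list was higher and 1 was lower.

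No call in the higher direction was made among 11 kinase genes and their partners (0 higher, 1 lower, median -0.07). Of all measured genes 14.2% were higher and 4.46% lower, and with 11 genes these counts do not set the list apart from those shares. The lower one was Ikbkb, the catalytic IkappaB kinase subunit of the canonical branch. Ikbkb read 840.7 and 767.6 in the colon pool, against 2388 and 2320 in the blood pool, a ratio of -1.55 ± 0.06 (2.93-fold lower), and it was also lower under median centring (-2.22) and with the scanner software (-1.799). The other components of the complex were named after their values were seen and were not called: Chuk had a ratio of -0.56 ± 0.14 and Ikbkg 0.23 ± 0.22. Map3k14, the kinase NIK of the non-canonical branch, named in the same way, had 0.29 ± 0.10 and was not called.

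Among the pathway lists, known target genes of NF-kappaB had the highest median. Of 27 measured genes, Ccl20 not being measured, 21 were higher (77.78%, against 14.2% of all measured genes) and 1 was lower. The median was 2.88. The 4 highest by the brightest probe were Vcam1, Cxcl1, Ccl4 and Ccl5, an adhesion molecule and 3 chemokines. Cxcl1 read 25551 and 22968 in the colon pool, against 188 and 200.6 in the blood pool, a ratio of 6.96 ± 0.17. Ccl4 had 6.44 ± 0.02 and Ccl5 had 5.64 ± 0.12. Vcam1 read 19295 and 15655 in the colon pool, against 75.49 and 44.17 in the blood pool, which passed the background flag on 1 of 2 arrays. Its ratio of 8.23 ± 0.33 therefore rests on a blood signal near background, and its other probe, at 5.045, would place it below Cxcl1, Ccl4 and Ccl5. Lcn2, a siderophore-binding protein, was lower at -1.78 ± 0.04. Under median centring 16 of the 27 were higher and 1 was lower, and these 5 genes kept their calls. Several of these genes are also expressed by fibroblasts or epithelium.

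**Figure D3:**
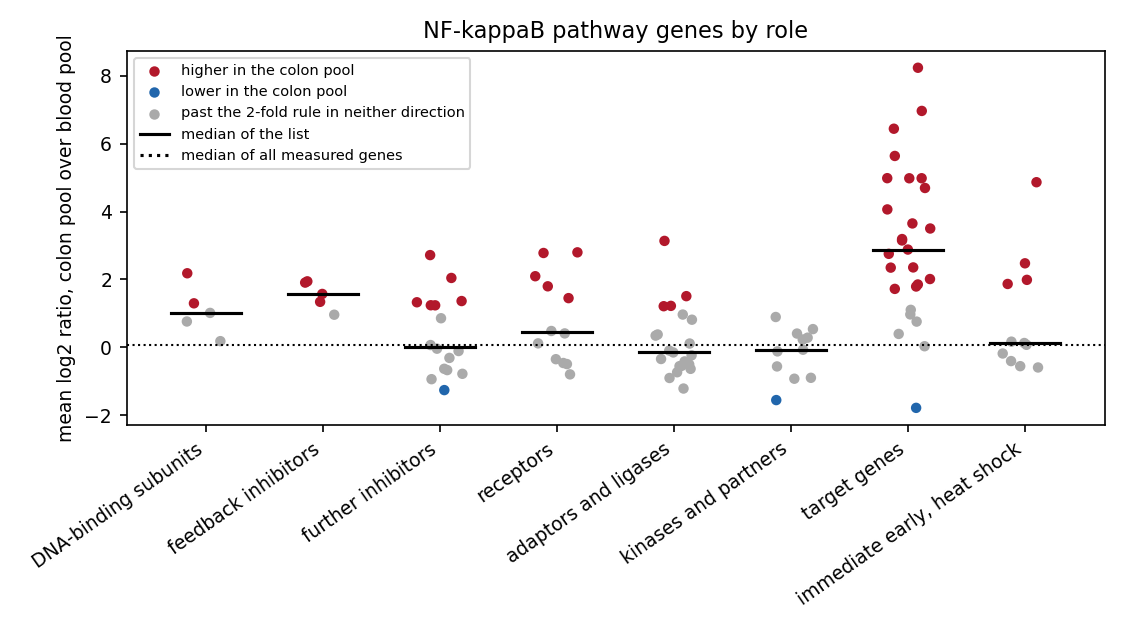
Mean log2 of colon pool over blood pool (y axis) for each measured gene of 8 lists (x axis), with red points for genes called higher, blue for lower and grey for neither, a bar for the median of the list and a dotted line for the median of all measured genes. The target genes have the highest median, 2.88, and the feedback inhibitors the next, 1.57, while the adaptors and ligases (-0.15) and the kinases (-0.07) lie near 0.

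The sort genes were read as a check of the labels. Itgax, which encodes CD11c, was higher in the colon pool at 3.35 ± 0.08, and Ly6c1 was lower at -3.28 ± 0.09. Itgam, which encodes CD11b, and Cx3cr1 were called in neither direction, at -0.46 ± 0.33 and 0.10 ± 0.25. Of all measured genes, 14.2% were higher and 4.46% lower, which is the background for the marker counts that follow. Macrophage genes were higher for 5 of 6 and monocyte genes lower for 5 of 5, with medians of 4.71 and -4.37. The sort gene Ly6c1 is 1 of these monocyte genes. The summed intensity of 6 fibroblast genes was 112152 and 113295 in the colon pool on the 2 arrays, against 1181 and 1080 in the blood pool, with 6 of 6 higher and a median of 6.77. The sum over 6 B and plasma cell genes was 35090 and 33724 in the colon pool, against 2305 and 2228 in the blood pool, with 5 of 6 higher. Epithelial genes were higher for 4 of 6, with sums of 5463 and 4609 in the colon pool and 667.2 and 526.4 in the blood pool, and T cell genes for 4 of 6, with sums of 3195 and 2449 in the colon pool and 988.9 and 644.5 in the blood pool. Neutrophil genes were lower for 3 of 6, with sums of 9273 and 6939 in the colon pool and 99624 and 68978 in the blood pool. Most of the blood sum came from S100a9 (72521 and 46195) and S100a8 (21722 and 17740). Ly6g, Ltf and Camp were dim in both pools and called in neither direction. The 6 dendritic cell genes summed to 7925 and 7774 in the colon pool and 1500 and 1375 in the blood pool. Ccr7 alone carried most of the colon sum, with 7216 and 7095 there, against 230 and 196.3 in the blood pool. Without it the sum was lower in the colon pool on both arrays, through Flt3 alone. Flt3 read 309 and 329.2 in the colon pool, against 941 and 870.4 in the blood pool, and the remaining genes were dim in both pools. Of the 5 measured dendritic cell genes Ccr7 was higher and Flt3 lower, and Xcr1 was not well above background in either pool. In the blood pool, 3 of 6 epithelial genes and 1 of 6 genes each of the fibroblast, T cell and B cell lists were well above background on neither array. These cell types also express NF-kappaB genes, and their part in the ratios of the 10 genes was not tested.

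Genes that tissue dissociation is known to induce were read from a list of immediate early and heat shock genes. Of 11 measured, 4 were higher (36.36%, against 14.2% of all measured genes) and 0 lower, and the median was 0.13. These were Hspa1a (4.86 ± 0.20), a chaperone with the near-identical paralog Hspa1b, and the immediate early transcription factor genes Fosb (2.48 ± 0.09), Egr1 (1.99 ± 0.17) and Jun (1.87 ± 0.11). Fosb read 22343 and 25070 in the colon pool, against 4208 and 4303 in the blood pool. Named after their values were seen, Fos had a ratio of -0.40 ± 0.27 and Dusp1 of -0.55 ± 0.16, and neither was called. Hspa1a alone was called under median centring. Some immediate early genes and some of the 10 genes answer to the same stimuli, and the part of cell isolation in their ratios was not tested.

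**Figure D4:**
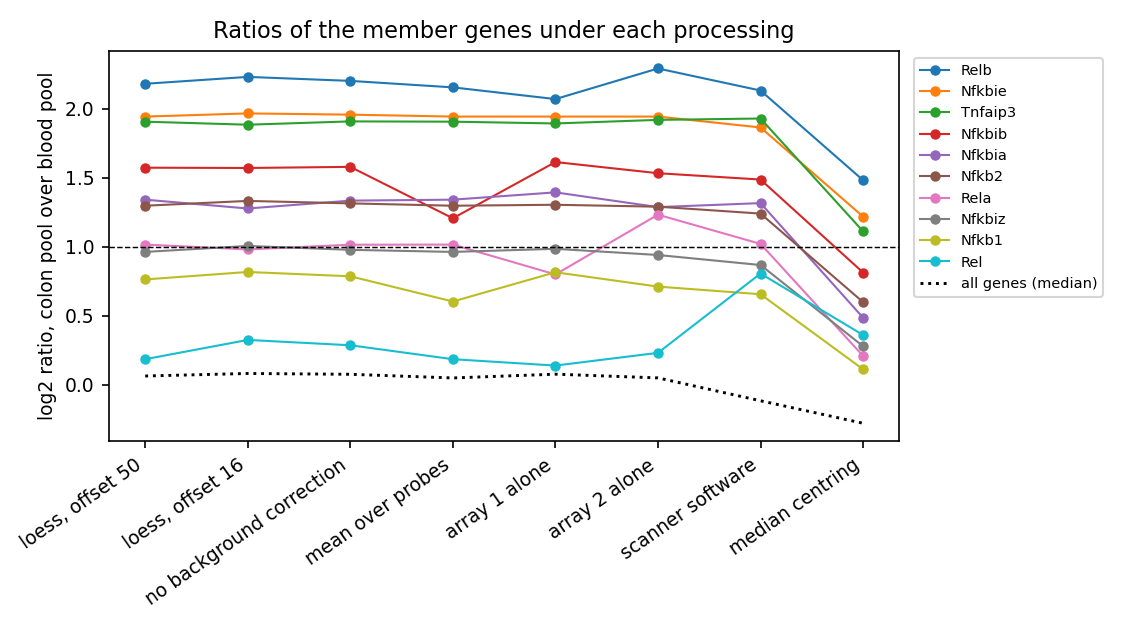
Log2 of colon pool over blood pool (y axis) for each of the 10 genes under 8 ways of processing the same 2 arrays (x axis), with a coloured line for each gene, a dotted line for the median of all measured genes and a dashed line at a log2 ratio of 1. With the mean over probes Nfkbib stands at 1.21 and Nfkb1 at 0.60. With the scanner software Rel stands at 0.81, and with median centring the 10 genes lie between 0.11 and 1.48 and all genes at -0.28.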

How the data were processed

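Per the labels' protocols, 25 ng of total RNA from each pool was amplified with an oligo-dT primer. Agilent arrays of design 026655 with 60-base probes were used, as the file headers state. Both arrays lay on 1 slide with 1 scan time. The deposited scanner files give linear spot and background intensity without normalization and the software's log10 ratio, per the file headers. The file headers name Feature Extraction 10.7.3.1, whereas the submitters' processing notes name 10.5.1.1. In the deposited value table the same log10 ratio appears, turned on array 2, and differs by at most 4.81e-08. The median spot intensity was 96.6 and 67.1 in the colon pool and 64.2 and 79.9 in the blood pool on arrays 1 and 2, over a local background of 40.5 to 43, so the offset compresses ratios of dim genes.

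From 43020 non-control spots, intensities were corrected by normexp (offset 50) and normalised by loess, giving weight 0 to control and outlier spots (limma 3.58.1, R 4.3.3), and turned to colon over blood. Spots of a probe were averaged, and of a gene's probes the brightest was used. RefSeq transcripts named 29529 spots, the files 8751, and 4740 had no name. Probe positions are those of the files (mm9), and promoters are from RefSeq (GRCm38).

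The 10 genes and the lists were chosen with earlier results of these data known. Named genes are the 10, the sort genes, and up to 4 called genes per list and direction, of which 1 gene is not reported here. Genes whose ratios are given outside this rule are marked as named after their values were seen. Alternatives were other background corrections, normalisations, probe rules, filters and thresholds, and each array alone.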

Additional observations from a re-analysis of the deposited data

How the results depend on the processing

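The 6 called genes were called higher in 10 of 11 alternatives, the exception being median centring, with 0 of 10. The alternatives changed the background correction, the normalisation, the choice of probe, the filter or the number of arrays. Not all of them could change a call. Each array alone and no filter on dim probes cannot remove a call made on both arrays. Quantile scaling of mean intensities left the ratios unchanged. The scanner software and the deposited table hold the same ratios but were counted separately. Nfkb1, Nfkbiz and Rel were called in 0 of 11 and Rela in 1 of 11, array 2 alone. With 1 array left out the count was 6 to 7 and the median 1.29 to 1.35. The count could not fall below 6 there, since each call already required both arrays. At a threshold of 1.5-fold 9 of 10 were higher (all but Rel) and at 4-fold 1, Relb, and 0 were lower in every alternative. The members' median was 0.54 under median centring and 1.25 with the mean over probes. The mean over both arrays kept its sign for all 10 genes under every alternative, although under median centring 7 of 10 lay below 0 on array 2. Over all genes, the main setting gave 2224 higher and 699 lower (76.1% of calls higher), median centring 1138 higher (67.1%), and 2081 genes were lower with the ratios of the scanner software as with those of the deposited table (60.4% higher). The thresholds of 1.5-fold and 4-fold gave 3493 and 954 higher, and 1725 and 130 lower, and single arrays gave 2398 to 2641 higher and 847 to 859 lower. The median of all genes was 0.06, -0.12 with the scanner software and -0.28 under median centring. The offset under median centring differed by array for bright genes, as given above, and why it arose was not tested. No paired analysis was possible because the 2 arrays read the same 2 pools and count as 1 replicate. Signal over background limits Rel, which alone of the 10 left the set when both pools had to be well above background.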

Other observations

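The kappaB consensus was also counted before the starts of the other pathway genes, as a description of letters in 250 bases. It was present for 10 of 21 target genes with a promoter entry, among them Il6, Cxcl1, Cxcl2 and Cxcl10, for 4 of 13 further inhibitors (Nfkbid, Tnip1, Tnip3 and Cyld), for 2 of 9 receptors, 2 of 16 adaptors and ligases and 1 of 8 kinases and partners. Of all measured genes with an entry 5.48% held it, of genes called higher in the colon pool 7.88%, and of genes called lower 4.89%. Cyld, a deubiquitinase that restrains the pathway and is named here after its value was seen, had a ratio of -0.67 ± 0.17 and was not called.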
